A study of Homo sapiens with 6 samples.

Results

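The transcripts of 10 genes that make and use microRNAs were examined in HCT116 cells, a human colorectal carcinoma line, with and without METTL3. The genes were DROSHA, DGCR8, DICER1, TARBP2, AGO1, AGO2, AGO3, AGO4, TNRC6A and TNRC6B. They were taken by symbol, and all 10 were found among the 56638 gene symbols of the count data. Only AGO3 passed the test between METTL3-KO and WT cells, and it was lower in the knockout. Of all 22452 tested genes, 26.5% passed at the same threshold, 13.2% as lower. The AGO3 call was lost when METTL3-KO 2 was left out. AGO2 varied more than any of the other 9 genes between samples of the same group.

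A microRNA starts as a hairpin in a longer primary transcript. DROSHA, a nuclear ribonuclease, and DGCR8, its RNA-binding partner, form the Microprocessor that cuts the hairpin out. After export to the cytoplasm, DICER1 trims the hairpin to a short duplex with the help of TARBP2. One strand is loaded into an Argonaute protein (AGO1 to AGO4), which finds target mRNAs mainly through bases 2 to 8 of the microRNA, the seed. The TNRC6 proteins bind Argonaute and recruit the enzymes that shorten the poly(A) tail of the target. METTL3, the catalytic subunit of the complex that writes N6-methyladenosine (m6A) on RNA, has been described as marking primary microRNAs for recognition by DGCR8.

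RNA-seq counts of genes were used, and mature microRNAs were not measured. The counts came from 3 WT samples and 3 METTL3-KO samples, grown in the same medium, with no other treatment given in the labels. The study describes the knockout as a single clone obtained after lentiviral delivery of Cas9 and a guide against METTL3 and puromycin selection, so loss of METTL3 and properties of that clone cannot be told apart. Nothing in the labels says that the samples of a group came from separate cultures, and p-values therefore measure the spread between these samples, which may be technical. Between 20936091 and 30142144 counts per sample fell on genes.

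METTL3 itself had 841, 682 and 623 counts in WT samples, against 219, 169 and 162 in METTL3-KO samples. Its log2 fold change was -2.04 ± 0.0906 (standard error, SE), with an adjusted p of 1.59e-07 in edgeR's quasi-likelihood test. Epithelial markers were present, with EPCAM at a mean level of 514 in WT and 519 in METTL3-KO cells, in counts scaled to a common library size (CPM). All 7 epithelial markers were tested, and their summed level was 5798 to 7190 CPM in WT and 8293 to 9248 CPM in METTL3-KO samples. Most of it came from KRT8, with means of 4119 CPM in WT and 5290 CPM in METTL3-KO samples. KRT8, KRT19, CDH1 and VIL1 were called higher, as were 13.3% of all tested genes. EPCAM, KRT18 and CDX2 were not called, and CDX2 had a log2 fold change of -0.19. The 9 markers of other cell types summed to 4.92 to 6.08 CPM in WT and 6.34 to 8.16 CPM in METTL3-KO samples, almost all from COL1A1, with ALB, COL1A2 and PECAM1 at 0 counts. The part of either marker list in the results was not tested. In bulk RNA, a lower level in every cell and fewer cells that hold the transcript cannot be told apart.

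WT 3 and METTL3-KO 3 stood apart from the other samples of their groups. The chi-square per gene, which would be near 1 for sampling noise alone, was 2.44 between WT 1 and WT 2 and 2.23 between METTL3-KO 1 and METTL3-KO 2. It was 20.8 and 20.7 between WT 3 and the other WT samples, and 10.1 and 7.61 between METTL3-KO 3 and the other METTL3-KO samples. The deviation followed transcript length, in opposite directions in the 2 groups. Among 490 genes with a transcript over 10 kb, the median log2 deviation from the group mean was 0.24 in WT 3 and -0.14 in METTL3-KO 3, and among 1592 genes under 2 kb it was -0.17 and 0.11. Of the 10 genes, 5 have a longest transcript over 10 kb (DICER1, AGO1, AGO2, AGO3 and TNRC6B), so for each of the 10 genes a value without WT 3 and METTL3-KO 3 stands beside the value from all samples. That fit was chosen after seeing the data and compares WT 1 and WT 2 with METTL3-KO 1 and METTL3-KO 2. These samples differed little within a group, so its p-values measure a small spread that may be technical.

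**Figure D1:**
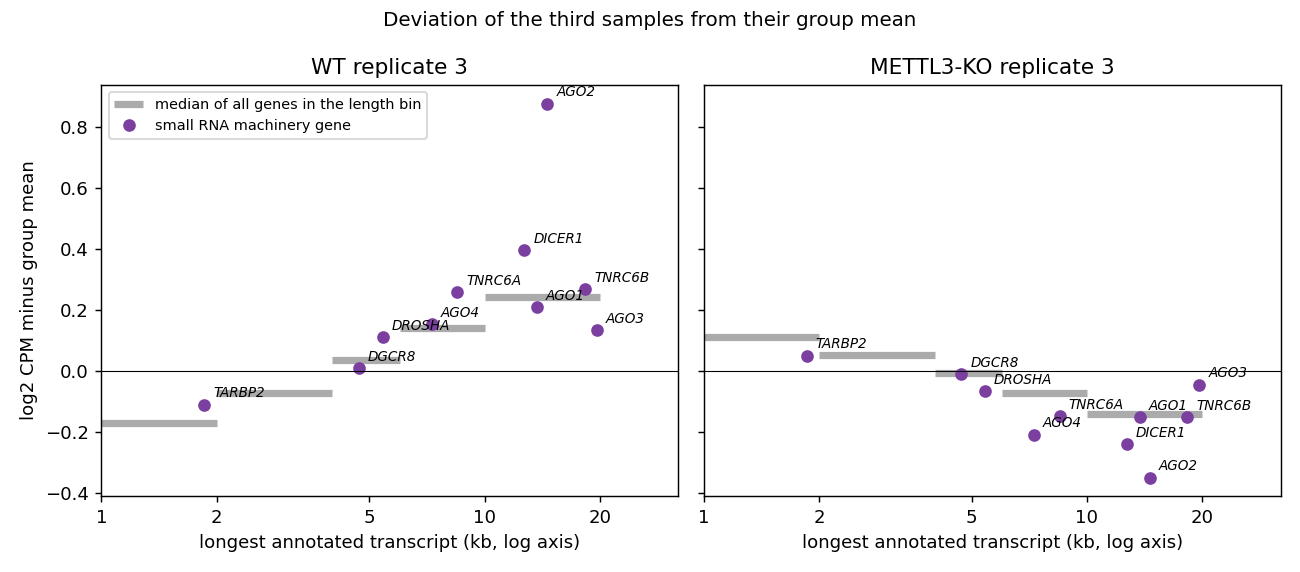
Log2 deviation of WT 3 (left) and METTL3-KO 3 (right) from the group mean (y axis) against the longest annotated transcript (x axis, kb, log scale), with grey bars for the median of all genes in a length bin and points for the 10 genes. The bars climb from -0.17 to 0.24 in WT 3 and go down from 0.11 to -0.14 in METTL3-KO 3, and AGO2 lies furthest out at 0.88 and -0.35.

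Of the 22452 genes tested across the whole data set, 26.5% were called at an adjusted p under 0.05, 13.2% lower and 13.3% higher in METTL3-KO cells. Against that background, 1 of the 10 genes was called lower and 0 higher. With edgeR's quasi-likelihood test and no adjustment, 3 of the 10 passed 0.05 as lower and 0 as higher. Passing that cut was common. Among all 22452 tested genes, the gene ranked 8361 by p-value in the same test had an unadjusted p of 0.0486. After adjustment, DESeq2 called the same single gene as edgeR. The median log2 fold change of the 10 was -0.14, with 7 values below 0 and 3 above, beside a median of -0.02 over all tested genes. That tally depended on how the samples that stood apart were handled. With WT 3 and METTL3-KO 3 both left out, 4 values were below 0 and 6 above, with a median of 0.03. Without WT 3 alone there were 6 and 4, with a median of -0.04. Leaving out METTL3-KO 3 alone kept 7 and 3, with a median of -0.06. A correction for transcript length and GC content also kept 7 and 3, with a median of -0.16. For DGCR8 and AGO3 the highest METTL3-KO sample was under the lowest WT sample, a pattern that 20.7% of all tested genes showed.

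**Figure D2:**
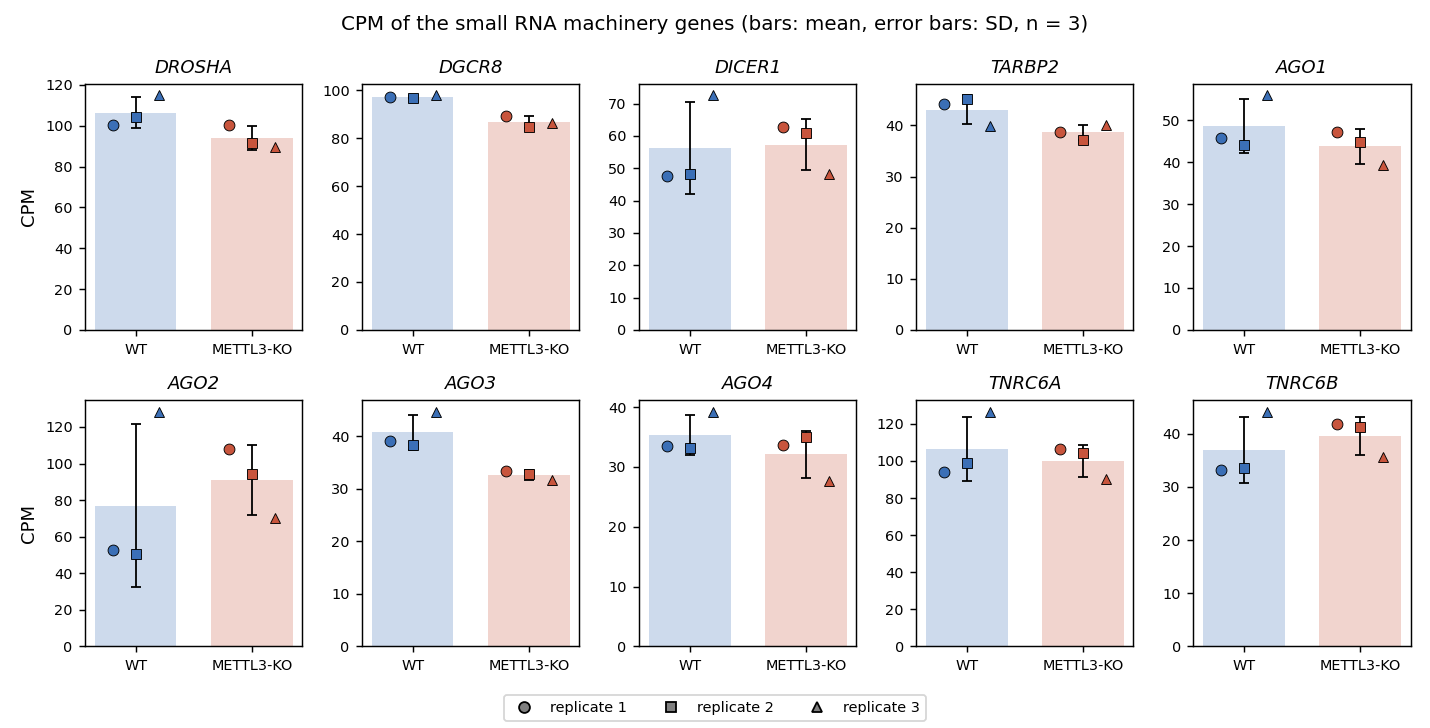
CPM (y axis) of the 10 genes in each WT and METTL3-KO sample, with points for samples and bars for the group mean and SD. In AGO3 and DGCR8 the groups do not overlap, while AGO2 runs from 50.4 to 128 CPM within the WT group alone.

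Both Microprocessor genes had slightly lower means in the knockout, and neither passed the test. DROSHA, on chromosome 5 of GRCh37 (31400601 to 31532303, minus strand), had 100.2, 104 and 115 CPM in WT samples and 100.5, 91.5 and 89.6 CPM in METTL3-KO samples. The groups overlapped, since METTL3-KO 1 was above WT 1. Its log2 fold change was -0.18 ± 0.0801 (SE), with an adjusted p of 0.123 by edgeR's quasi-likelihood test. DGCR8 was the steadiest of the 10 genes within the WT group, at 97.0, 96.7 and 97.9 CPM. Its METTL3-KO values were 89.4, 84.8 and 86.3 CPM, all below the WT samples. The means were 97.2 ± 0.583 and 86.8 ± 2.38 CPM (SD, n = 3 each), a log2 fold change of -0.16 ± 0.0675 (SE) with an adjusted p of 0.0994 by edgeR's quasi-likelihood test. The ratio of DGCR8 to DROSHA CPM overlapped between the groups, at 0.852 to 0.968 in WT and 0.889 to 0.963 in METTL3-KO samples.

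Called status of the Microprocessor pair moved with the handling of transcript length. After each sample was corrected for transcript length and GC content, 33.7% of all genes were called, and both genes were among them. DROSHA then had means of 107 ± 3.11 and 93.1 ± 3.67 CPM (SD, n = 3) and a log2 fold change of -0.20, with an edgeR adjusted p of 0.00888. Corrected DGCR8 means were 98.3 ± 0.766 and 85.9 ± 1.72 CPM, with a log2 fold change of -0.19 and an edgeR adjusted p of 0.00694. Without WT 3 and METTL3-KO 3, a choice made after seeing the data, 44.1% of all genes were called, and DGCR8 was called at -0.15 with an edgeR adjusted p of 0.00651. DROSHA was then at -0.09 and was not called (edgeR adjusted p of 0.137).

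DGCR8 lies on chromosome 22 of GRCh37 (20067744 to 20099400, plus strand) and carries hairpins within its own mRNA, a feature for which this transcript is known as a Microprocessor substrate. MIR3618 (20073269 to 20073356) sits in the 5′ UTR part of exon 2 and MIR1306 (20073581 to 20073665) in the coding part of the same exon. Their mature products are shown because their hairpins lie in exons of the message whose level was measured. The sequences are from RefSeq on GRCh38.p14, 5′ to 3′, with the seed in capitals.
hsa-miR-3618: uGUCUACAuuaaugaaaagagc
hsa-miR-1306-5p: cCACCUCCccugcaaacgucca
hsa-miR-1306-3p: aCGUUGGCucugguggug

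The 3 seeds differ from one another. Both hairpins had 0 counts under their own symbols in all 6 samples, and reads over them would also overlap a DGCR8 exon, where union-mode counting sets them aside as ambiguous. On the opposite strand, TRMT2A also overlaps DGCR8 exons, and 9.57% of the exon bases of DGCR8 were shared with these genes and 1 further gene on the opposite strand. The library kit does not mark strand, so in the shared stretch reads of TRMT2A and DGCR8 cannot be told apart. If the counting ignored strand, such reads were set aside as ambiguous and entered neither count. TRMT2A had means of 86.8 ± 9.61 CPM in WT and 75.9 ± 7.08 CPM in METTL3-KO samples and was not called (adjusted p of 0.176, edgeR's quasi-likelihood test).

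DICER1, the ribonuclease that produces the mature duplex, did not pass the test in either direction. Its WT values were 47.7, 48.2 and 72.5 CPM and its METTL3-KO values 62.7, 61.0 and 48.2 CPM. WT 3 was above every METTL3-KO sample, and METTL3-KO 3 was at the level of WT 1 and WT 2. The log2 fold change was 0.03 ± 0.153 (SE), with an adjusted p of 0.903 by edgeR's quasi-likelihood test. DICER1 lies on chromosome 14 (95552565 to 95624347, minus strand) and shares 0.36% of its exon bases with the opposite-strand gene DICER1-AS1. Its longest transcript is 12.7 kb, and its deviation from the group mean was 0.40 in WT 3 and -0.24 in METTL3-KO 3 on the log2 scale. Among the 490 genes over 10 kb, 95 deviated further upward in WT 3 and 96 further downward in METTL3-KO 3. Without WT 3 alone, a fit that called 34.7% of all tested genes, DICER1 was called higher at 0.26 (edgeR adjusted p of 0.0429). Without both samples, a fit that called 44.1%, it was called with a log2 fold change of 0.37 and an edgeR adjusted p of 1.63e-07. With the length and GC correction the values drew together, to 52.7, 53.4 and 61.0 CPM in WT and 58.4, 58.2 and 52.8 CPM in METTL3-KO samples, and the gene was not called.

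TARBP2, the double-stranded RNA-binding partner of DICER1, lies on chromosome 12 (53894705 to 53900215, plus strand) and has the shortest of the 10 transcripts at 1.85 kb. An opposite-strand gene overlaps 13.2% of its exon bases. It had 44.1, 45.2 and 39.9 CPM in WT and 38.8, 37.1 and 40.0 CPM in METTL3-KO samples, so the groups overlapped only through WT 3 and METTL3-KO 3. The log2 fold change was -0.16 ± 0.0799 (SE), with an adjusted p of 0.178 by edgeR's quasi-likelihood test. Without WT 3, when 34.7% of all genes were called, TARBP2 was called lower. Without WT 3 and METTL3-KO 3 it was called at -0.23 with an edgeR adjusted p of 0.00124. PRKRA, the paralog of TARBP2 that also binds DICER1, had means of 21.8 ± 0.391 and 19.2 ± 0.495 CPM (SD, n = 3) and was not called. The PRKRA to TARBP2 ratio was 0.507 ± 0.0423 in WT and 0.498 ± 0.0104 in METTL3-KO samples.

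DICER1 also hosts a hairpin, MIR3173, and its mature sequences, from the same RefSeq source, are given because it is the other of the 10 genes found to hold one.
hsa-miR-3173-5p: uGCCCUGCcuguuuucuccuuu
hsa-miR-3173-3p: aAAGGAGGaaauaggcaggcca

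The Argonautes, the proteins that hold the guide strand, gave both the 1 called gene and the most variable one. AGO3 had 39.2, 38.4 and 44.6 CPM in the WT samples, from 1075, 868 and 952 counts. In the METTL3-KO samples it had 33.4, 32.8 and 31.6 CPM, from 1006, 722 and 744 counts. Every METTL3-KO value was below every WT value, and AGO3 fell from 40.7 ± 3.41 to 32.6 ± 0.890 CPM (SD, n = 3), a decrease by 19.9% on mean CPM. Its log2 fold change was -0.32 ± 0.0835 (SE), with an adjusted p of 0.0140 by edgeR's quasi-likelihood test. The call was lost without METTL3-KO 2, at an edgeR adjusted p of 0.0536. It was also lost with the replicate number added to the fit, at an edgeR adjusted p of 0.0848. No pairing of same-numbered samples is described. Without WT 3 and METTL3-KO 3 the log2 fold change was -0.23, with an edgeR adjusted p of 0.00247. AGO3 is the longest of the 10 transcripts at 19.7 kb, yet WT 3 deviated by 0.14 and METTL3-KO 3 by only -0.04 on the log2 scale, less than the medians of long genes. With the length and GC correction AGO3 had 44.3, 43.5 and 36.1 CPM in WT and 30.7, 30.9 and 35.4 CPM in METTL3-KO samples. WT 3 and METTL3-KO 3 were then close to each other. That fit called 33.7% of all tested genes, and AGO3 was called at -0.35 with an edgeR adjusted p of 0.00595.

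AGO2, the Argonaute whose slicing activity cuts perfectly paired targets, had 52.6, 50.4 and 128 CPM in WT and 108, 94.5 and 70.4 CPM in METTL3-KO samples. WT 3 was above all METTL3-KO samples, while WT 1 and WT 2 were below them all. Its log2 fold change was 0.25 ± 0.293 (SE), with an adjusted p of 0.580 by edgeR's quasi-likelihood test. The 0.88 deviation in WT 3 was exceeded by 3 of the 490 genes over 10 kb, and the -0.35 in METTL3-KO 3 by 19 of them. Without WT 3 the log2 fold change was 0.83 ± 0.124 (SE) with an edgeR adjusted p of 4.15e-05, and without METTL3-KO 3 as well it was 0.98 with an edgeR adjusted p of 1.28e-21. That last fit was chosen after seeing the data, called 44.1% of all tested genes and rests on WT 1, WT 2, METTL3-KO 1 and METTL3-KO 2 alone. The length and GC correction left the groups overlapping, at 58.8, 56.1 and 110 CPM in WT and 99.1, 89.5 and 76.5 CPM in METTL3-KO samples. The part of transcript length and of these libraries in the AGO2 values was not tested further.

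AGO1 and AGO4 showed no call. AGO1 had 45.9, 44.1 and 55.9 CPM in WT and 47.3, 44.7 and 39.3 CPM in METTL3-KO samples, with a log2 fold change of -0.15 ± 0.104 (SE). AGO4 had 33.5, 33.2 and 39.2 CPM against 33.6, 35.0 and 27.6 CPM, with a log2 fold change of -0.14 ± 0.105 (SE). In both genes WT 3 was the highest WT sample and METTL3-KO 3 the lowest knockout sample. Adjusted p-values were 0.328 for AGO1 and 0.376 for AGO4 by edgeR's quasi-likelihood test. AGO1 was called lower after the length and GC correction, with means of 49.4 ± 1.58 and 42.8 ± 0.497 CPM. The log2 fold change was 0.03 for AGO1 and 0.03 for AGO4 when WT 3 and METTL3-KO 3 were left out, and neither was called. AGO4, AGO1 and AGO3 lie side by side on the plus strand of chromosome 1 (36273617 to 36323491, 36335409 to 36396133 and 36396319 to 36538101), whereas AGO2 lies on chromosome 8 (141530255 to 141645732, minus strand).

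The makeup of the Argonaute family was compared per kb of transcript, as a description with no test. AGO2 made up 26.6%, 26.2% and 42.8% of the summed CPM per kb in WT and 43.2%, 39.9% and 36.8% in METTL3-KO samples. AGO4 made up 34.0%, 34.6% and 26.3% in WT and 26.9%, 29.7% and 29.0% in METTL3-KO samples. On this scale AGO4 had the largest share in WT 1 and WT 2, and in the other 4 samples AGO2 did. Without division by transcript length, AGO2 had the largest share of the summed CPM in every sample, at 30.7% in WT 1 and 30.3% in WT 2. The summed CPM of the 4 Argonautes was 171, 166 and 268 in WT and 222, 207 and 169 in METTL3-KO samples, with overlapping groups.

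TNRC6A and TNRC6B, the scaffolds that connect Argonaute to deadenylation, were not called. They lie on the plus strands of chromosome 16 (24621530 to 24838953) and chromosome 22 (40440821 to 40731812). TNRC6A had 94.3, 99.0 and 126 CPM in WT and 106, 104 and 90.3 CPM in METTL3-KO samples, with a log2 fold change of -0.09 ± 0.110 (SE) and an adjusted p of 0.603 by edgeR's quasi-likelihood test. TNRC6B had 33.1, 33.6 and 44.1 CPM against 41.9, 41.2 and 35.5 CPM, with a log2 fold change of 0.10 ± 0.115 (SE) and an adjusted p of 0.557 in the same test. Both were highest of the WT group in WT 3 and lowest of the knockout group in METTL3-KO 3. On CPM without the length and GC correction, their ratio varied little within a group. It was 2.85, 2.95 and 2.87 in WT and 2.54, 2.53 and 2.54 in METTL3-KO samples, and the groups did not overlap. The mean ratio was 2.89 ± 0.0515 in WT and 2.53 ± 0.00784 in METTL3-KO samples (SD, n = 3), given as a description with no test. With the correction, WT 3 had the highest TNRC6A of its group at 114 CPM and the lowest TNRC6B at 36.7 CPM. METTL3-KO 3 then had the lowest TNRC6A of its group at 95.3 CPM and the highest TNRC6B at 39.3 CPM. The ratio was not taken on that scale. Without WT 3 and METTL3-KO 3, a fit that called 44.1% of all tested genes, both genes were called higher. TNRC6A was at 0.12 with an edgeR adjusted p of 0.0285, and TNRC6B at 0.32 with an edgeR adjusted p of 3.26e-05. Leaving out WT 3 alone gave a call for TNRC6B, at 0.25 with an edgeR adjusted p of 0.0280. That fit called 34.7% of all tested genes. TNRC6C, the third paralog, had means of 15.3 ± 3.83 and 16.0 ± 2.48 CPM and was not called.

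**Figure D3:**
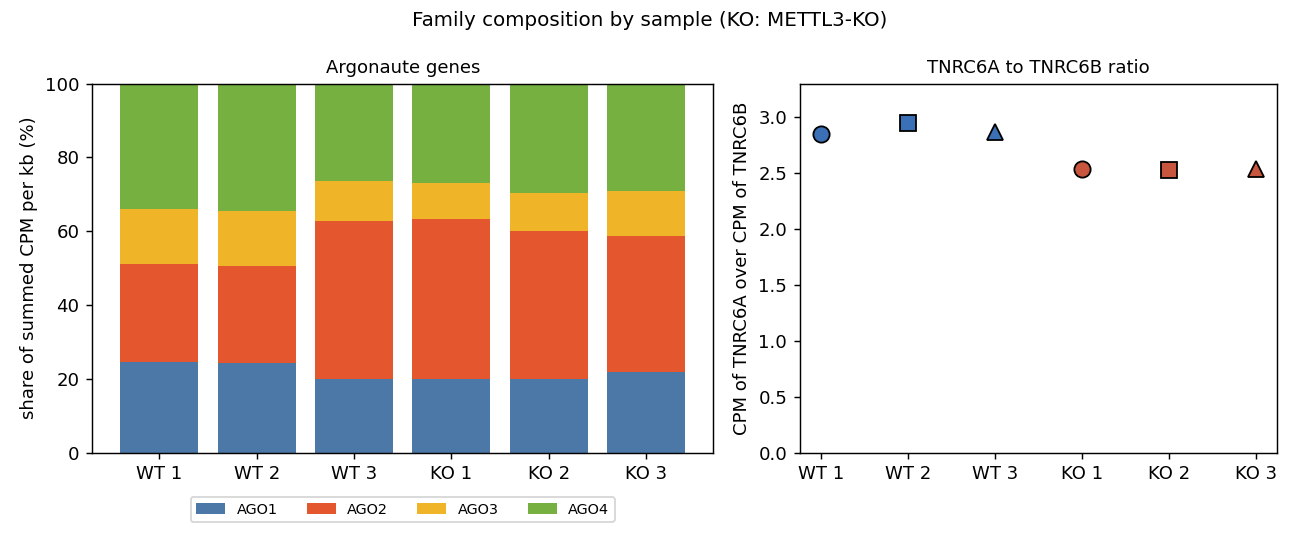
Left, share of the summed CPM per kb (y axis, percent) taken by each Argonaute in the 6 samples (x axis), and right, the ratio of TNRC6A to TNRC6B CPM (y axis) in the same samples. AGO2 takes 26.6% and 26.2% in WT 1 and WT 2 and 36.8% to 43.2% in the other samples, WT 3 included, while the ratio is 2.85 to 2.95 in every WT and 2.53 to 2.54 in every METTL3-KO sample.

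**Figure D4:**
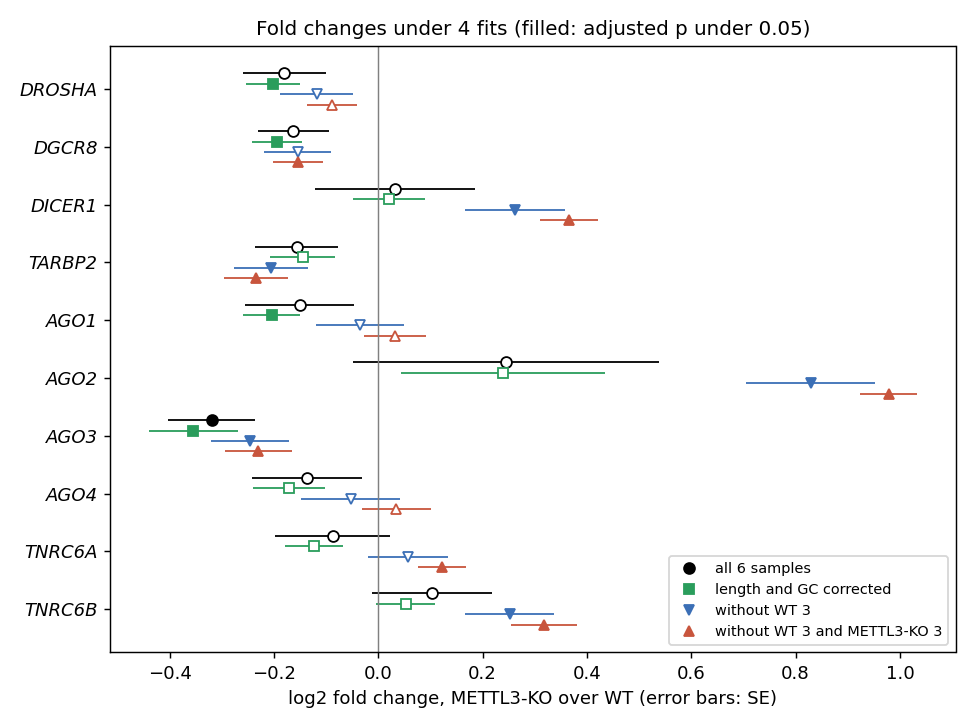
Log2 fold change of METTL3-KO over WT (x axis) with its SE for the 10 genes, for all 6 samples, with the length and GC correction, without WT 3, and without WT 3 and METTL3-KO 3, filled where the adjusted p is under 0.05. AGO3 stays between -0.35 and -0.23, and AGO2 moves from 0.25 to 0.98 when the 2 samples are left out.

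Levels of the 10 genes were ordered by CPM per kb of the longest annotated transcript, which may understate genes whose longest 3′ ends are little used in these cells. In WT samples TARBP2 was highest at 23.2 ± 1.52 CPM per kb, and its range did not reach that of DGCR8 at 20.7 ± 0.124. DGCR8 and DROSHA, at 19.6 ± 1.40, overlapped. TNRC6A followed at 12.5 ± 2.05, clear of its neighbours on either side. AGO2 (5.28 ± 3.04), AGO4 (4.86 ± 0.462), DICER1 (4.42 ± 1.12) and AGO1 (3.55 ± 0.466) each overlapped the next in that order. AGO3 and TNRC6B were lowest, at 2.07 ± 0.173 and 2.02 ± 0.340, and overlapped. In METTL3-KO samples the order was the same down to AGO2, DICER1 and AGO4 exchanged places within their spread, and AGO3 became the lowest at 1.66 ± 0.0453, below the range of TNRC6B at 2.16 ± 0.191.

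The other genes of the pathway were taken from hand-written lists by step. The share of each list that was called is read against the 26.5% of all tested genes (13.2% lower and 13.3% higher). With the stricter filterByExpr filter of edgeR, which keeps better expressed genes, 37.4% of 16124 genes were called. The part of expression level in the list shares was not tested. For the listed genes named below as having fallen or risen, SEs ran from 0.0669 to 0.177 on the log2 scale and edgeR adjusted p-values from 2.3e-05 to 0.0426. Of 16 cofactors of primary microRNA processing, 6 fell and 2 rose in METTL3-KO cells, 50% of the list, with a median log2 fold change of -0.12. The number lower was 3 without METTL3-KO 2 and also 3 without METTL3-KO 3. SRSF3, an RNA-binding protein that assists the Microprocessor on some hairpins, fell by 0.46 on the log2 scale. HNRNPA1, which remodels the miR-18a hairpin, fell by 0.36. KHSRP, which binds the terminal loop of some precursors, rose by 0.24 and SAFB2 by 0.22. These were weak calls. KHSRP lost its call without WT 2 or any 1 of the METTL3-KO samples (edgeR adjusted p of 0.0553 to 0.0823), and SAFB2 without any 1 sample other than WT 3 (0.0680 to 0.130). HNRNPA2B1, described as a reader of m6A on primary microRNAs, had 1620.4 ± 51.3 CPM in WT and 1398 ± 52.9 CPM in METTL3-KO cells, with an edgeR adjusted p of 0.0290; it was named after its values were seen, for its link to METTL3.

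Among 15 genes of export and loading, 3 fell and 4 rose, 46.7% of the list, with a median of 0.02. XPO5, the exportin that carries precursor hairpins out of the nucleus, had 110, 111 and 121 CPM in WT and 70.1, 65.2 and 63.9 CPM in METTL3-KO samples. The groups were far apart, and its log2 fold change was -0.78 ± 0.0758 (SE) with an adjusted p of 2.3e-05 by edgeR's quasi-likelihood test. RAN, the GTPase that exportins need, had 417 CPM in both groups and was not called. The co-chaperone PTGES3 fell from 262 ± 12.5 to 164 ± 8.88 CPM, a log2 fold change of -0.68, and TSN, a subunit of the nuclease that removes passenger strands, fell by 0.29, a call lost without METTL3-KO 2 (edgeR adjusted p of 0.0845). Other chaperone genes rose, FKBP4 by 0.61, HSPA8 by 0.53 and AHSA1 by 0.48.

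Turnover genes were split as well, with 3 lower and 4 higher among 12 tested of 15, which is 58.3% of those tested. ZSWIM8, the ubiquitin ligase adaptor of target-directed microRNA decay, fell by 0.46, and the nucleases PARN and PNPT1 fell by 0.39 and 0.24. PNPT1 lost its call without any 1 sample other than WT 3 (edgeR adjusted p of 0.0545 to 0.142). SND1, a Tudor nuclease, rose from 379 ± 32.6 to 605 ± 17.8 CPM, a log2 fold change of 0.67. TUT7 (listed as ZCCHC6), which adds uridine to precursors, rose by 0.67, and TENT4B (listed as PAPD5), which adenylates small RNAs, rose by 0.53. Of 32 silencing effectors 4 fell and 4 rose, with a median of -0.04, and this 25% of the list is close to the share of all tested genes. CNOT6L, a deadenylase subunit, fell by 0.79, AJUBA by 0.57 and the helicase MOV10 by 0.41. EIF4E2, a cap-binding repressor, rose by 0.50, the decapping factor EDC3 by 0.48 and FXR1 by 0.41. Among 3 tested PIWI genes, PIWIL4 rose from 12.8 ± 1.20 to 19.2 ± 1.17 CPM.

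Without WT 3 and METTL3-KO 3 the counts, lower and then higher, were 8 and 2 for the cofactors, 5 and 6 for export and loading, 4 and 5 for turnover and 5 and 12 for the silencing effectors. In the same comparison 44.1% of all tested genes were called. AHSA1 was then at 0.31, HSPA8 at 0.38 and CNOT6L at -0.56, all called, with edgeR adjusted p-values up to 6.42e-07.

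**Figure D5:**
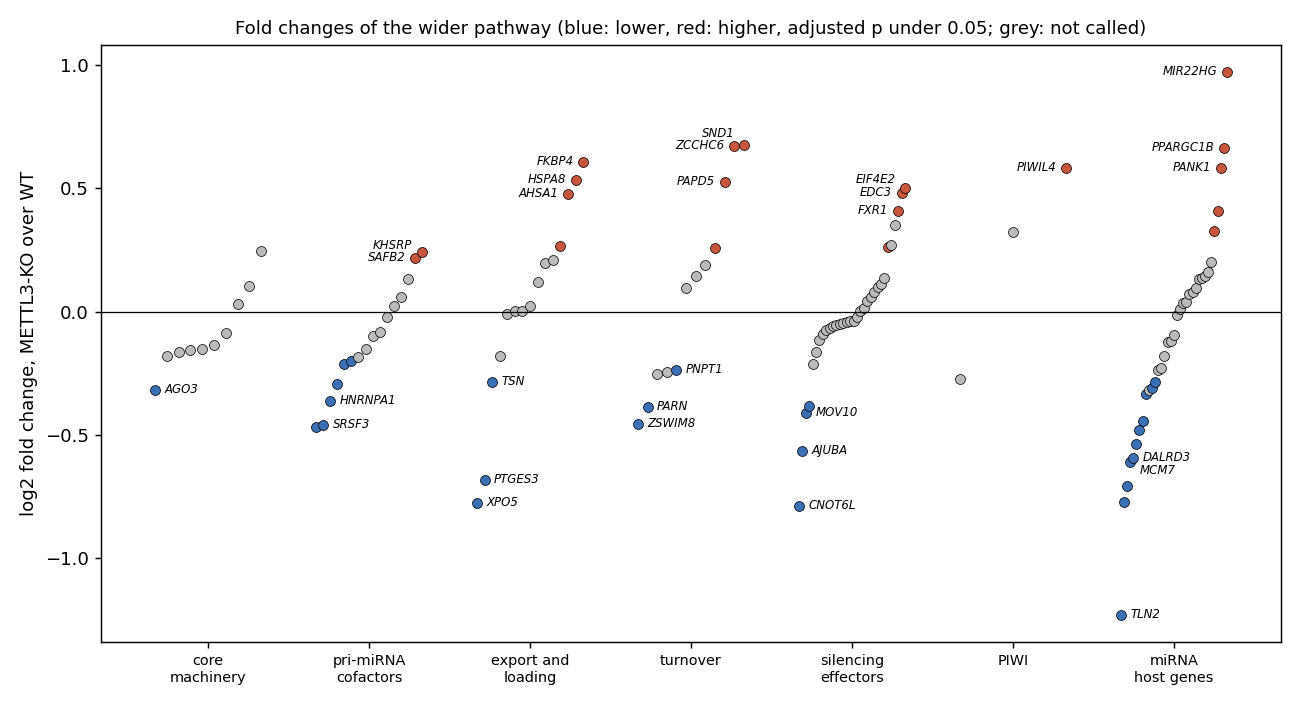
Log2 fold change of METTL3-KO over WT (y axis) for the 10 core genes and the tested genes of the 6 other lists (x axis), blue where lower and red where higher at an adjusted p under 0.05 and grey where not called. AGO3 is the only colored core gene, and XPO5 at -0.78 is the lowest gene of export and loading.

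The transcripts that carry microRNA hairpins were the last list, and of 35 tested host genes 11 fell and 5 rose, 45.7% of those tested, with a median log2 fold change of -0.10. MIR22HG, the primary transcript of miR-22, rose from 11.2 ± 0.915 to 21.9 ± 0.817 CPM, and its log2 fold change of 0.97 was the highest of the list. PPARGC1B rose by 0.67 and PANK1 by 0.58. TLN2 fell from 3.58 ± 0.247 to 1.52 ± 0.229 CPM, a log2 fold change of -1.23. MCM7, a replicative helicase subunit whose gene holds the miR-25 cluster, fell from 357 ± 26.3 to 234 ± 3.74 CPM and DALRD3 from 22.7 ± 1.95 to 15.0 ± 0.705 CPM. Without WT 3 alone 9 hosts were higher, in a fit that called 34.7% of all tested genes. With METTL3-KO 3 left out as well 13 were lower and 12 higher, in a fit that called 44.1% of all tested genes. MIR17HG, the host of the miR-17 cluster, had 7.11 ± 1.29 and 6.32 ± 0.997 CPM and was not called. Counts of a host gene cover its spliced message and do not measure the microRNA. Mature products of the 6 hosts named here as called follow, as RefSeq gives them, with seeds in capitals and 1 arm for each hairpin shown. For DALRD3 only MIR191 is shown.
hsa-miR-22-3p (MIR22HG): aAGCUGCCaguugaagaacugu
hsa-miR-378a-3p (PPARGC1B): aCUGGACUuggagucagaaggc
hsa-miR-107 (PANK1): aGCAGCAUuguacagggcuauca
hsa-miR-190a-5p (TLN2): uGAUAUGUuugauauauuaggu
hsa-miR-106b-5p (MCM7): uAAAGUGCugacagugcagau
hsa-miR-93-5p (MCM7): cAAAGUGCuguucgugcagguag
hsa-miR-25-3p (MCM7): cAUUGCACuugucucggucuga
hsa-miR-191-5p (DALRD3): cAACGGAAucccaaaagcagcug

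The seed AAAGUGC is shared by hsa-miR-106b-5p and hsa-miR-93-5p, and each of the other 6 has a seed of its own.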

How the data were processed

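RNA-seq of 3 WT and 3 METTL3-KO HCT116 samples was used. The authors aligned read pairs to hg19/GRCh37 with TopHat2 2.0.11 and assigned them to genes with htseq-count (union mode). What they deposited is raw counts per sample for 56638 gene symbols. The HTSeq version and strand setting are not given in the sources used here. The TruSeq RNA kit does not mark strand. Unassigned reads (no feature, 6.97% to 10.5%, and ambiguous, 9.22% to 10.3%) were left out of library sizes. The deposited files are named SiM3 for the METTL3-KO samples and NC with other numbers for the WT samples, and the label groups and numbers were used.

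A gene was tested if either condition held at least 5 counts in total, and 22452 were. The groups were compared by the quasi-likelihood test of edgeR 4.0.16 in R 4.3.3, TMM-normalized, two-sided, with Benjamini-Hochberg adjustment over all tested genes and a threshold of 0.05. The SE is the log2 fold change divided by the square root of F. CPM values use TMM-scaled library sizes. An exact permutation test cannot go below 0.1 with 3 samples against 3 and was not used. Lengths and positions came from GENCODE on GRCh37, which matched 35700 symbols including all 10 genes, and mature microRNAs from RefSeq.

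Alternatives were DESeq2 1.42.0, RLE normalization, other filters, a block for the replicate number, each sample left out in turn, a length and GC correction by splines with 5 degrees of freedom, and, added after seeing the data, leaving out WT 3 and METTL3-KO 3. The tests were tried on simulated data. The genes and lists were chosen with earlier results of these data known. The text names the 10 genes, METTL3 and, per list, the 3 genes with the smallest adjusted p under 0.05 in each direction (1 of them is not reported here), with PRKRA, RAN, TNRC6C, MIR17HG, HNRNPA2B1, TRMT2A and marker genes added as context after their values were seen.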

Additional observations from a re-analysis of the deposited data

How the results depend on the processing

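AGO3 was negative under all 14 alternatives, from -0.35 to -0.23 on the log2 scale, and called in 12 of them. The exceptions were the replicate block and the fit without METTL3-KO 2. Leaving out each sample in turn gave 0 to 2 of the 10 genes lower and 0 to 3 higher, with the upper values without WT 3. These fits called from 19.2% of all tested genes (without METTL3-KO 2) to 34.7% (without WT 3). Without WT 3 and METTL3-KO 3, 4823 genes were lower and 4555 higher in place of 2959 and 2986, and of the 9378 called 5689 were among the 5945 of all 6 samples. With 44.1% of all tested genes called there, the core genes gave 3 lower and 4 higher, and TNRC6A turned from -0.09 to 0.12. The length and GC correction gave 4 lower, with 33.7% of all tested genes called, and 3 with the replicate block added, with 26.1% called. No filter beyond 1 count called 22.3% of all tested genes and gave 1 higher, AGO2 (edgeR adjusted p of 0.0211). SAFB2 and PNPT1 were then not called (edgeR adjusted p of 0.0564 and 0.0523). AGO2 ranged from 0.03 to 0.98 and was called in 3 of 14. The causes were not tested.

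The replicate number as a block gave 1719 genes lower and 1810 higher, 15.7% of those tested. Of the 10 genes it gave 0 in either direction by edgeR, with 1 lower and 0 higher before adjustment. Without METTL3-KO 2, 0 were lower after adjustment and 1 before it. The block left AGO3 at -0.32 with an edgeR adjusted p of 0.0848. Among the named pathway genes, KHSRP, SAFB2, PNPT1 and TSN lost their calls with the block (edgeR adjusted p of 0.0821 to 0.187), and 6 hosts were lower in place of 11 and 3 cofactors in place of 6. Deviations of same-numbered samples correlated at -0.59, -0.39 and -0.78 across genes, and no sample correlated best with its own number. WT 3 and METTL3-KO 3 deviated in opposite directions with transcript length. These correlations therefore cannot tell whether same-numbered samples were handled together.

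All 10 genes had at least 650 counts in every sample.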
